A study of Oryctolagus cuniculus with 6 samples.

Results

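The miR-23, miR-27 and miR-24 microRNAs are made in vertebrates from 2 paralogous genomic clusters, each of which yields a miR-23, a miR-27 and a miR-24 hairpin. Their levels were compared between exosome-treated and saline-treated hypertrophic scars on rabbit ears, collected on day 21. The members are all miRNAs of the deposited table whose name, without copy number and arm, is miR-23a, miR-23b, miR-24, miR-27a or miR-27b. This gave 7 of 467 mature miRNAs, namely both arms of miR-23b, both arms of miR-27b (ocu-miR-27b-3p and ocu-miR-27b-5p in the table, with the species prefix dropped from here on), and miR-24-3p, miR-24-2-5p and miR-24-5p. miR-23a and miR-27a were not analysed here.

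The animals were female rabbits of the New Zealand White breed, in a model of raised scars that starts from full-thickness wounds on the ventral side of the ear. Wounds received either saline or ADSC-Exos. ADSC-Exos are exosomes, the small vesicles that cells secrete, taken from stem cells of fat tissue and applied at 100 µg in 2 ml. Treatment lasted 3 days from injury in the design text and 21 days in the sample labels. No genetic change is described for either group, and the species that donated the stem cells is not stated. Small RNA of 3 saline and 3 ADSC-Exos scars was sequenced, and 3 rabbits were assigned to each group, but the labels do not say whether every library came from its own rabbit. Where libraries come from the same rabbit, the p-values cover only the variation among these libraries, which may be technical.

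A miRNA hairpin is cut into a 5p and a 3p arm, and the arm that is loaded into an Argonaute protein pairs through its seed with transcripts and lowers their output, while the other arm is mostly degraded. miR-23 and miR-24 were tied to TGF-β signalling in rodents, where the miR-23b cluster lowers Smad proteins in fetal liver cells and miR-24 lowers furin, a protease that activates TGF-β, in cardiac fibroblasts. miR-27 lowers PPARG, the master transcription factor of fat cells, in mouse and human cells, and both clusters are abundant in endothelium. In the RefSeq annotation of rabbit assembly mOryCun1.1, MIR23B, MIR27B and MIR24-1 lie together inside the gene AOPEP, an aminopeptidase. MIR24-2 lies between ZSWIM4 and NANOS3, close to MIR181C and MIR181D. The table holds a single miR-24-3p row without a copy number, so its reads cannot be divided between MIR24-1 and MIR24-2. No source used here says how reads of near-identical paralogues, such as miR-27a and miR-27b, were counted, and the miR-27b-3p and miR-23b-3p values are uncertain to that extent.

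Levels are given as CPM, that is as reads after every library was scaled to the same total of miRNA reads. The steps between low values place the libraries at 2260645 to 5102405 miRNA reads. A single read then equals 0.196 to 0.442 CPM. A count of 0 is compatible with up to 3 reads, or 0.588 to 1.33 CPM, where only counting error is considered. ADSC-Exos 1 stood apart from the other treated libraries. On the first principal component of all tested miRNAs, which held 45.5% of the variance, it had a score of -6.26, next to saline scores of -3.67 to -2.03, and ADSC-Exos 2 and 3 had scores of 5.15 and 9.78. In bulk tissue, fewer cells of a type and less of an RNA per cell cannot be told apart.

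The members differed in level by orders of magnitude. miR-27b-3p was the sixth most abundant miRNA of the table by its mean, at 58470 CPM, and ranked between 5 and 9 in every library. miR-24-3p followed at place 22 with a mean of 5960 CPM and miR-23b-3p at place 31 with 3757 CPM. miR-24-2-5p, the other arm of the MIR24-2 hairpin, was at place 90 with a mean of 255 CPM. These 4 did not overlap in level: the lowest miR-24-3p value, 5020.8 CPM, was above the highest of miR-23b-3p, 4725 CPM. Together the 7 members took 4.95% to 8.16% of the miRNA reads of a library, of which miR-27b-3p made up 80.1% to 87.8%. Small RNA sequences differ in how readily they accept adaptors, so an order of read levels need not be the order of molecules.

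The remaining 3 arms were low in every library. For miR-23b-5p the saline libraries 1, 2 and 3 gave 4.3, 7.7 and 8.7 CPM, and the ADSC-Exos libraries 1, 2 and 3 gave 8.4, 8.6 and 6.3 CPM, which stands for 14 to 34 reads. In the same order, miR-27b-5p had 5.9, 3.8 and 3.1 CPM with saline, then 5.3, 1.9 and 8.8 CPM with exosomes, or 7 to 45 reads. It was the higher of both in saline 1 and ADSC-Exos 3 and the lower in the other libraries, so these arms did not differ beyond their spread. The saline values of miR-24-5p were 0.6, 2.1 and 0.8 CPM, and the treated values 0, 0.8 and 2.2 CPM. It reached 11 reads in ADSC-Exos 3, and its count of 0 in ADSC-Exos 1 allows up to 1.33 CPM. All 3 had a mean under 10 CPM, the level required for the test, so 4 of 7 members were tested.

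**Figure D1:**
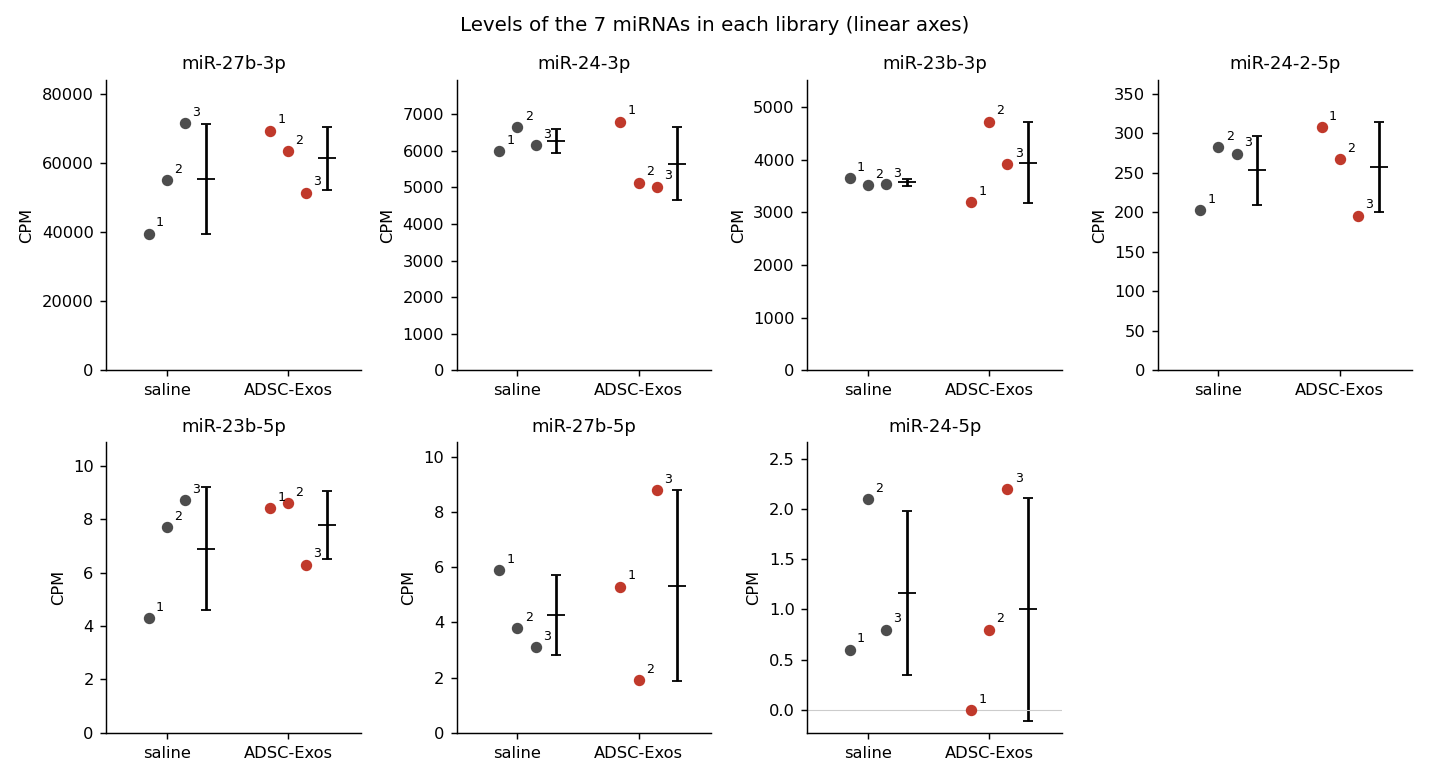
CPM of each member (linear axes) in 3 saline libraries (grey) and 3 ADSC-Exos libraries (red), numbered by replicate, with the mean and SD as a bar beside each group. The groups overlap in every panel, and the saline libraries of miR-23b-3p lie between 3526.6 and 3645.2 CPM while its ADSC-Exos libraries lie on both sides of them.

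Exosome treatment was not accompanied by a change in any member that passed the test. In a limma fit across the 224 miRNAs that averaged 10 CPM or more, 0 of 4 tested members passed an adjusted p of 0.05 (two-sided, Benjamini-Hochberg), against a background of 0% of all miRNAs tested. At an unadjusted p under 0.05 there were again 0 of 4 members, where the background was 3.57%, or 8 miRNAs. That background count was 28 without ADSC-Exos 1, 2 without ADSC-Exos 3, 3 without ADSC-Exos 2 and 4 without saline 2. limma-voom, run on the reads that the low-value steps give, also called 0 miRNAs, with 8 at the unadjusted threshold. Groups overlapped for all 7 members, of which 3 were not tested. Among the miRNAs tested, groups did not overlap for 4.91%, a share too low to set so few members apart. Of the 4 tested members 3 had a positive and 1 a negative log2 fold change, where 39.3% of all tested miRNAs were positive and the median over all was -0.082. The 4 intervals lay between 0.601-fold and 1.73-fold, so a change of 2-fold in either direction fell outside the 95% interval of each.

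miR-27b-3p, the member that represses PPARG, was at 39639.7, 55031.5 and 71659.1 CPM in saline 1, 2 and 3. In ADSC-Exos 1, 2 and 3 it was at 69516, 63458.3 and 51517.3 CPM. All treated values lay inside the saline range, which saline 1 and saline 3 set. The saline libraries averaged 55443 ± 16014 CPM and the treated libraries 61497 ± 9158 CPM (SD, n = 3 each). The log2 fold change was estimated at 0.18 ± 0.27 (SE), its 95% interval ran from -0.43 to 0.79, and limma gave an adjusted p of 0.996. Exact two-sided permutation of the libraries gave p = 0.7, and the design cannot give a p below 0.1. Without saline 1, the lowest library, the log2 fold change was -0.041, and without saline 3, the highest, it was 0.39.

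miR-24-3p, which represses cell cycle genes in human cells besides furin, was at 5999.9, 6643.2 and 6161.4 CPM in saline. It was at 6800.7 CPM in ADSC-Exos 1, above all saline libraries, whereas ADSC-Exos 2 and 3, with 5133.6 and 5020.8 CPM, were below all of them. The treated libraries thus stood on either side of a narrow saline range, with the same division as on the first principal component. Saline averaged 6268 ± 335 CPM and treatment 5652 ± 997 CPM (SD, n = 3 each). The resulting log2 fold change of -0.16 ± 0.25 (SE) had a 95% interval from -0.73 to 0.41 and did not pass (adjusted p = 0.996 in limma, exact permutation p = 0.4). Without ADSC-Exos 1 it was -0.30, with an adjusted p of 0.694 in limma, which was the lowest adjusted p of any member under any setting tried.

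miR-23b-3p, of the hairpin that neighbours miR-27b, reached 3645.2, 3526.6 and 3537.1 CPM with saline. In ADSC-Exos 1, 2 and 3 it reached 3191.1, 4725 and 3914 CPM. Here too ADSC-Exos 1 lay on one side of the saline libraries and ADSC-Exos 2 and 3 on the other, but in the opposite direction to miR-24-3p. Its mean was 3569.6 ± 65.7 CPM with saline and 3943 ± 767 CPM with exosomes (SD, n = 3 each). The log2 fold change, 0.13 ± 0.26 (SE) with a 95% interval from -0.47 to 0.72, did not pass either (adjusted p = 0.996 in limma, exact permutation p = 0.6). Without ADSC-Exos 2 it was -0.014 and without ADSC-Exos 1 it was 0.27.

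miR-24-2-5p, the only measured arm that the names tie to the MIR24-2 hairpin alone, gave 202.4, 282.2 and 274.3 CPM with saline and 307.9, 267.8 and 195.8 CPM with exosomes. The lowest and the highest library were both treated, and the group means of 253 ± 44.0 and 257 ± 56.8 CPM (SD, n = 3 each) differed by less than either SD. limma placed its log2 fold change at 0.014 ± 0.31 (SE), within -0.70 to 0.73 at 95% (adjusted p = 0.996, exact permutation p = 1). It turned to -0.13 without ADSC-Exos 1, to -0.027 without ADSC-Exos 2 and to -0.14 without saline 1.

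**Figure D2:**
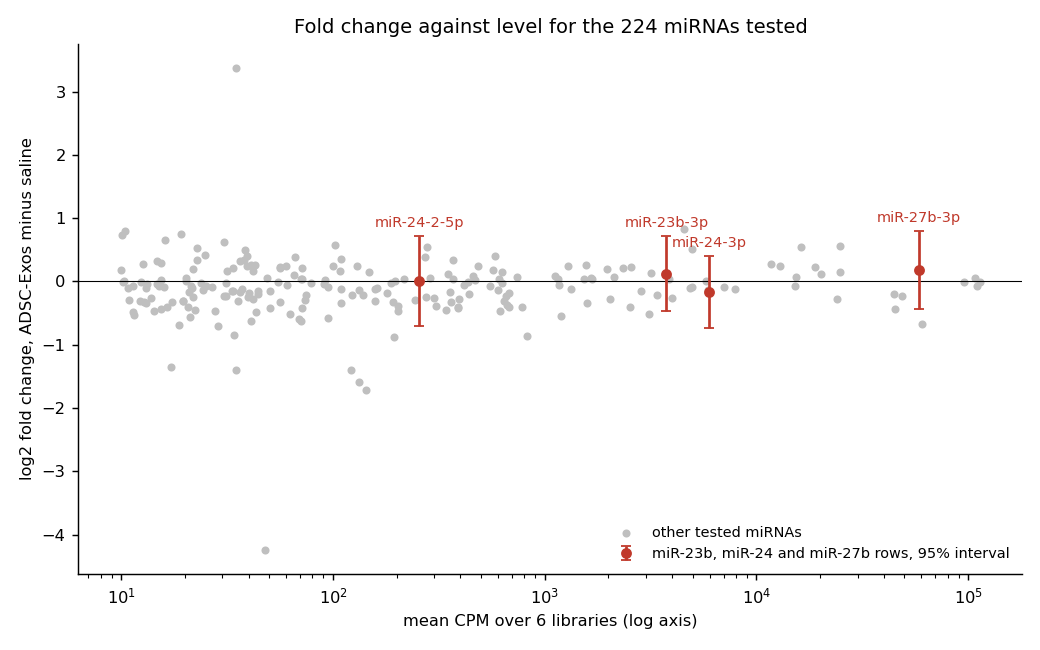
Log2 fold change of ADSC-Exos against saline (vertical axis) by mean CPM over the 6 libraries (horizontal log axis) for the 224 miRNAs tested, in grey, with the 4 tested members in red and their 95% intervals. Each interval includes 0, and the member estimates lie between -0.16 and 0.18.

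The spread between libraries was small for miR-23b-3p and miR-24-3p. The coefficient of variation of miR-23b-3p over the saline libraries was 1.84%, the second lowest of the 224 miRNAs, where the median was 25.0%. That of miR-24-3p was 5.34%, the tenth lowest, and that of miR-27b-3p was 28.9%, at place 134. Over the ADSC-Exos libraries these values were 19.5%, 17.6% and 14.9%, where the median was 31.3%. With both groups pooled, the SD of log2(CPM + 1) was 0.18 for miR-24-3p, 0.20 for miR-23b-3p, 0.30 for miR-24-2-5p and 0.34 for miR-27b-3p, against a median of 0.46 over all tested miRNAs. Among the 52 miRNAs that averaged 1000 CPM or more, where the median was 0.38, miR-24-3p and miR-23b-3p had the seventh and eighth lowest SD, and miR-27b-3p stood at place 24. With 3 libraries a group, such values describe these libraries only.

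The members of the AOPEP cluster did not keep a fixed ratio to each other. miR-27b-3p exceeded miR-23b-3p by 10.9, 15.6 and 20.3 times in saline 1, 2 and 3 and by 21.8, 13.4 and 13.2 times in ADSC-Exos 1, 2 and 3. The mean log2 ratio was 3.92 in saline and 3.97 in ADSC-Exos, a difference of 0.055 with an exact permutation p of 0.9 (adjusted p = 0.9 over the 2 ratios tested). The difference was -0.18 without saline 1 and also -0.18 without ADSC-Exos 1. The ratio of the highest to the lowest library was 2.00, above the corresponding 1.81 of miR-27b-3p and 1.48 of miR-23b-3p by themselves. Since both values of a ratio come from the same library, library scaling does not enter it.

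The second ratio tested was that of miR-24-3p to miR-24-2-5p, the arms of the MIR24-2 hairpin, although miR-24-3p may also come from MIR24-1. It was 29.6, 23.5 and 22.5 in saline and 22.1, 19.2 and 25.6 in ADSC-Exos. The groups overlapped, with a log2 difference of -0.18 and an exact permutation p of 0.4 (adjusted p = 0.8). This difference was -0.055 without saline 1, -0.073 without ADSC-Exos 2 and -0.28 without ADSC-Exos 3. A further pair of ratios was computed after the values had been seen and was not tested. miR-27b-3p exceeded miR-24-3p by 6.61, 8.28 and 11.6 times in saline and by 10.2, 12.4 and 10.3 times in ADSC-Exos. miR-24-3p exceeded miR-23b-3p by 1.65, 1.88 and 1.74 times in saline and by 2.13, 1.09 and 1.28 times in ADSC-Exos, so ADSC-Exos 1 was again above the saline range and ADSC-Exos 2 and 3 below it.

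**Figure D3:**
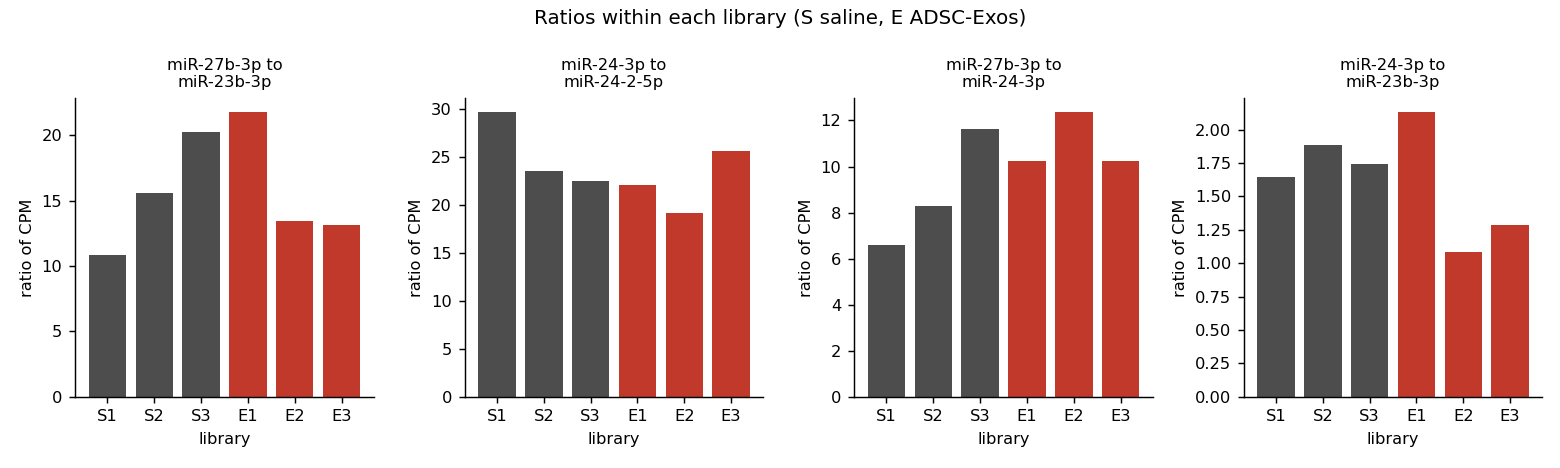
Ratios of CPM between members within each library (bars from 0), with saline libraries in grey (S1 to S3) and ADSC-Exos libraries in red (E1 to E3). The groups overlap in each of the 4 ratios, and the ratio of miR-24-3p to miR-23b-3p is highest in ADSC-Exos 1 at 2.13 and lowest in ADSC-Exos 2 at 1.09.

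miR-27b and miR-23b were strongly 3p-dominant. Over the 6 libraries 1222291 reads of miR-27b-3p stood against 106 of miR-27b-5p, and the ratio per library ran from 5854 in ADSC-Exos 3 to 33399 in ADSC-Exos 2, a range that rests on 7 to 45 reads of the minor arm. For miR-23b the totals were 80497 and 153 reads, with ratios of 380 to 848 per library. By mean CPM, the dominant arm of miR-27b exceeded the other by 12181 times, the fifth most uneven of 195 names with reads in both arms. Its 3p arm was the favoured one, whereas the 4 names ahead of it, let-7f, miR-146a, miR-16b and miR-182, favoured the 5p arm. The minor arms of miR-146a and miR-182 averaged 0.033 and 0.117 CPM, less than a single read per library. A miRNA of low level cannot reach such ratios, so these places depend in part on abundance. Rows with a copy number, such as miR-24-2-5p, were not added to the arms of the plain name, which may shift the places and the median. miR-23b stood at place 45 with 512 times, where the median over all names was 26.3 times. For miR-24 the value depends on which rows are set against each other, since miR-24-3p may come from both hairpins. By mean CPM it exceeded miR-24-5p alone by 5501 times, but both 5p rows together by 23.3 times, because miR-24-2-5p had 657 to 1073 reads per library.

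Relative to their saline means the 4 tested members did not share a common course over the libraries, though some pairs ran alike. On the scale of log2(CPM + 1), miR-27b-3p lay at -0.44 in saline 1 and at 0.41 and 0.37 in saline 3 and ADSC-Exos 1. miR-24-2-5p had the next widest course, from -0.35 in ADSC-Exos 3 to 0.30 in ADSC-Exos 1. miR-23b-3p was highest in ADSC-Exos 2, at 0.40, where miR-24-3p lay at -0.29. Pearson's r of log2(CPM + 1) over 6 libraries is given as a description, without a test. It was 0.80 between miR-27b-3p and miR-24-2-5p, 0.62 between miR-24-2-5p and miR-24-3p, and 0.21 between miR-27b-3p and miR-24-3p. With miR-23b-3p it was -0.083 for miR-27b-3p, -0.28 for miR-24-2-5p and -0.85 for miR-24-3p. These values share the same libraries and the same scaling.

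**Figure D4:**
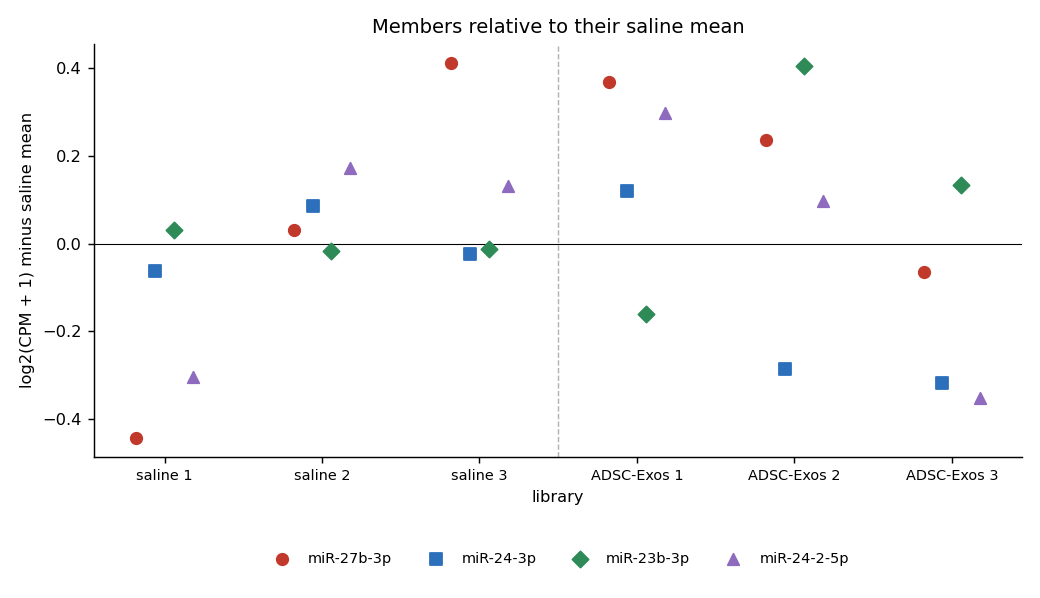
Log2(CPM + 1) of the 4 tested members minus their own saline mean (vertical axis) in each of the 6 libraries (horizontal axis), each member with its own colour and marker. miR-27b-3p spans -0.44 to 0.41 within saline, while miR-23b-3p and miR-24-3p stay near 0 there and lie on opposite sides of 0 in ADSC-Exos 1, 2 and 3.

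The miRNAs outside the clusters with the most similar courses were different for each 3p member, by Pearson's r of log2(CPM + 1) over the 6 libraries among all tested miRNAs. For miR-27b-3p they were miR-497-5p (r = 0.99), miR-542-5p (r = 0.97) and miR-199a-5p (r = 0.96). For miR-497-5p saline gave 389.3, 583.5 and 843.6 CPM and treatment 813.9, 672.9 and 483.1 CPM, with the same low saline 1 and high saline 3 as miR-27b-3p. miR-199a-5p, a miRNA that is rich in fibroblasts, showed 9865.4, 15001.6 and 30001.3 CPM with saline and 23383.1, 18390.2 and 16382.1 CPM with exosomes. For miR-23b-3p the closest were miR-195-5p (r = 0.95), miR-29a-3p (r = 0.92) and miR-30a-5p (r = 0.91). For miR-24-3p they were miR-16b-5p (r = 0.97), the myeloid miR-223-3p (r = 0.93) and miR-15b-5p (r = 0.91). These are the highest of many correlations over few libraries and carry no test. None of the 9 passed the comparison between groups (adjusted p = 0.996 for each in limma), and their log2 fold changes ran from -0.55 for miR-223-3p to 0.55 for miR-29a-3p.

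The miRNA genes that lie close to MIR24-2, chosen as context after their values were known, were much lower in level than miR-24-3p. Saline libraries held 20.6, 14.3 and 13.8 CPM of miR-181c-5p, and treated libraries 18.6, 13 and 5.7 CPM. For miR-181c-3p these values were 29.3, 23.3 and 20.5 CPM and 17.7, 6.7 and 5.7 CPM, without overlap between groups. Groups did not overlap for 4.91% of all miRNAs tested. miR-181c-3p did not pass in limma (log2 fold change -1.35 ± 0.48 SE, adjusted p = 0.861). miR-181d-5p had a log2 fold change of -0.22 ± 0.42 (SE), and miR-24-2-5p, the arm that names MIR24-2, stood at 0.014 ± 0.31 (SE). The difference between miR-181c-3p and miR-24-2-5p was not tested.

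Lists of miRNAs that mark other cells of the ear were set beside the members, and 0 miRNAs of any of the 8 lists passed. No list used here marks hypertrophic scar as such, so the tissue label was not tested against markers. Of 5 tested endothelial and vascular miRNAs, 1 was higher and 4 lower (median log2 fold change -0.065), and the summed level of all 9 measured ran from 1453.1 to 2175.5 CPM in saline and from 1273.8 to 1751.2 CPM in ADSC-Exos. Its most abundant rows were miR-92a-3p, with a log2 fold change of -0.23 ± 0.46, and miR-221-3p, with -0.065 ± 0.28 (SE). Of 11 adipocyte miRNAs 2 were higher and 9 lower (median -0.18), and all 16 measured summed to 40514.9 to 73481 CPM in saline and 17473.3 to 68103 CPM in ADSC-Exos. They were led by miR-143-3p at -0.43 ± 0.53 and miR-103a-3p at -0.15 ± 0.28 (SE). miR-143-3p alone had 36862.5 to 68829.7 CPM in saline and 13577.1 to 65099.9 CPM in ADSC-Exos. It thus made up most of the adipocyte sum and of the smooth muscle sum, which say little about the other rows. The adipocyte, smooth muscle and endothelial lists share rows, among them miR-143-3p and miR-130a-3p. The median of the 4 tested members was 0.070, and that of all 224 miRNAs -0.082.

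Several lists set ADSC-Exos 1 apart from ADSC-Exos 2 and 3, as miR-24-3p and miR-23b-3p did. The summed level of 7 erythroid miRNAs was 472.1 to 872.5 CPM in saline, 485.2 CPM in ADSC-Exos 1, and 168.7 and 123.7 CPM in ADSC-Exos 2 and 3, with all 5 tested lower (median -1.39). That of 11 leukocyte miRNAs was 8057.7 to 10208 CPM in saline, 10247.1 CPM in ADSC-Exos 1, and 6752.9 and 7603.7 CPM in ADSC-Exos 2 and 3, with 2 of 8 tested higher and 6 lower (median -0.35). That of 4 cartilage miRNAs was 2109.9 to 4651.9 CPM in saline, 1461.1 CPM in ADSC-Exos 1, and 7601.9 and 6045.6 CPM in ADSC-Exos 2 and 3, with all 4 higher (median 0.25). That of 4 smooth muscle miRNAs was 38229.3 to 70397.1 CPM in saline and 14505.1, 49206.3 and 67008.6 CPM in ADSC-Exos 1, 2 and 3, with all 4 lower (median -0.27) and ADSC-Exos 1 alone outside the saline range. Like miR-24-3p, the erythroid and leukocyte sums were higher in ADSC-Exos 1 than in ADSC-Exos 2 and 3. The cartilage sum, like miR-23b-3p, was lower in ADSC-Exos 1 than in ADSC-Exos 2 and 3. Of the 2 most abundant leukocyte rows, miR-146a-5p had 5315.7, 2793.4 and 2832 CPM in ADSC-Exos 1, 2 and 3. miR-155-5p went the other way, with 1734, 2054.1 and 3704.1 CPM. The part of these lists in the values of the members was not tested.

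The skeletal muscle list (3 tested, all lower, median -0.70) summed to 1453.7 to 2134.8 CPM in saline and to 612.2, 2375.8 and 1590.5 CPM in ADSC-Exos 1, 2 and 3. Most of that sum was miR-1-3p, at 1621.3, 1282.6 and 2100.2 CPM in saline and 600.7, 2338 and 1554.6 CPM in ADSC-Exos. The log2 fold change of miR-1-3p was -0.33 ± 0.48 (SE). The keratinocyte and epithelium list (5 of 7 tested higher, 2 lower, median 0.40) summed to 8146.5 to 11340.6 CPM in saline and to 12055.4, 12315.5 and 7928.4 CPM in ADSC-Exos. miR-27b-3p was higher in ADSC-Exos 1, at 69516 CPM, than in ADSC-Exos 2 and 3, at 63458.3 and 51517.3 CPM. These values all lay between saline 1, its lowest library, and saline 3, its highest. Of the 2 most abundant rows of each list, miR-206-3p had the lowest log2 fold change, -4.24 ± 1.10, and miR-141-3p the highest, 0.51 ± 0.25 (SE), and none passed. miR-205-5p, the other such row of the keratinocyte and epithelium list, went the other way from miR-141-3p, at -0.51 ± 0.50 (SE). miR-206-3p had 131.5, 145.8 and 4.6 CPM in saline 1, 2 and 3 and 1.8, 1.6 and 1.2 CPM in ADSC-Exos. Its fold change thus rests on saline 1 and 2 against values of few reads. In saline 1, miR-27b-3p at 39639.7 CPM stood beside a miR-143-3p level of 68829.7 CPM, the highest of that miRNA in any library. A relation between these miRNAs was not tested.

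**Figure D5:**
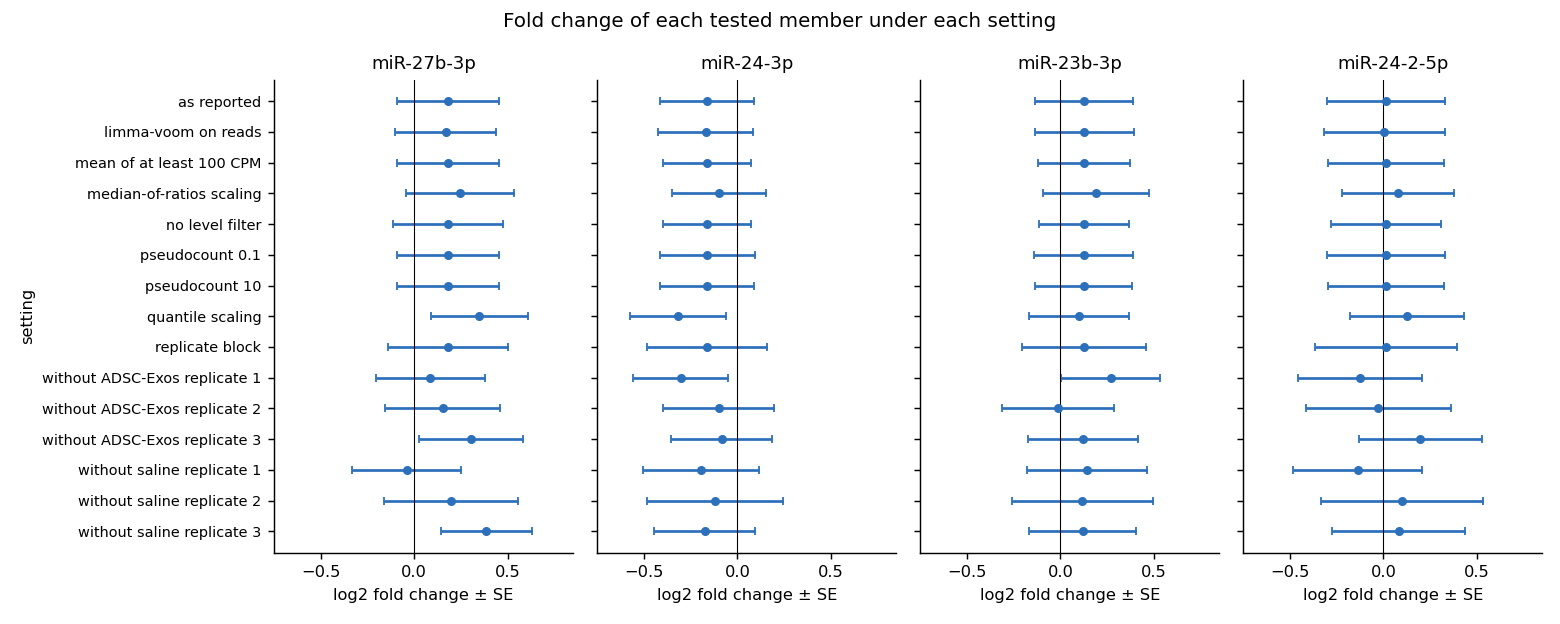
Log2 fold change with its SE (horizontal axis) of the 4 tested members as reported and under each of 14 alternative settings (vertical axis). miR-24-3p stays below 0 under all of them, from -0.32 to -0.084, while the estimates of the other 3 members cross 0 when certain libraries are left out.

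The direction of miR-24-3p was the only one among the 4 tested members that kept its sign under all 14 alternatives, which the plot of settings shows. With the replicate block, the other level filters and the other pseudocounts its estimate stayed at -0.16. Those settings hardly act on a miRNA of this level and say little about its sign. No alternative brought a member past the threshold. Quantile scaling moved miR-27b-3p to 0.35 and miR-24-3p to -0.32, and median-of-ratios scaling moved them to 0.24 and -0.098. Both members had an adjusted p of 0.999 under the former and 0.998 under the latter in limma.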

How the data were processed

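Small RNA libraries of rabbit ear scars were read on an Illumina NovaSeq 6000, according to the design text. Tools listed in the submitters' processing notes, whose roles are not stated, are DESeq2 1.30.1, HTSeq 2.0.3, STAR 2.7.6a, Trimmomatic 0.40 and FastQC 1.0.0. Not given in the sources used here are genome build, miRNA annotation and strand setting, and coordinates are left out. The authors deposited CPM values rounded to 1 decimal for 467 mature miRNAs. Scaling by total reads makes each value relative to all other miRNAs of its library. For each library the read total was sought that makes most values whole reads (tolerance 0.05 CPM, lowest value 1 read), and 2378 of 2382 values above 0 were such multiples. In ADSC-Exos 3 a pair of totals tied.

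limma 3.58.1 (limma-trend, R 4.3.3) was fitted to log2(CPM + 1) of the 224 miRNAs averaging 10 CPM or more, with group as the only term and Benjamini-Hochberg adjustment over all of them. The pseudocount shrinks the fold changes of miRNAs at low levels. Ratios and single miRNAs were compared by exact two-sided permutation over 20 arrangements. The fit was run on simulated data with independent noise for each miRNA. Such data lack the differences between libraries that many miRNAs share here, so the simulation does not cover them. Member names and lists were chosen with earlier results of these data known. Named besides the members are the 3 tested miRNAs most correlated with each tested 3p member and any miRNA past the threshold. The 8 lists were endothelial and vascular, adipocyte, erythroid, skeletal muscle, smooth muscle, cartilage, keratinocyte and epithelium, and leukocyte. The 2 most abundant rows of each list were compared, and only some of these rows are named. miR-130a-3p is named as a row that lists share. miR-181c, miR-181d and the 4 names of uneven arms were picked once their values were known. Alternative settings were median-of-ratios and quantile scaling, a pseudocount of 0.1 or 10, dropping the level filter or raising it to 100 CPM, the replicate number as a block, limma-voom on the reads and each library left out. Ratios that involve miR-23a or miR-27a were planned and are not analysed here.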

Additional observations from a re-analysis of the deposited data

How the results depend on the processing

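The count of tested members past the threshold was 0 under all 14 alternatives, with adjusted p from 0.694 to 0.999 for the lowest member (limma). Over all miRNAs the count of 0 ranged from 0 to 4 with a library left out: it became 4 without ADSC-Exos 1 and 1 without saline 3, and none of these was a member. Neither tested ratio passed under any of 9 alternatives, and with 3 libraries a group the exact test cannot pass. The log2 fold change changed sign for miR-27b-3p without saline 1 (-0.041), for miR-23b-3p without ADSC-Exos 2 (-0.014), and for miR-24-2-5p without ADSC-Exos 1 (-0.13), without ADSC-Exos 2 (-0.027) and without saline 1 (-0.14). The log2 ratio of miR-27b-3p to miR-23b-3p changed sign without ADSC-Exos 1 and without saline 1 (-0.18 each). With a library left out, the log2 fold change ran up to 0.39 for miR-27b-3p, 0.27 for miR-23b-3p and 0.20 for miR-24-2-5p, and the log2 difference of that ratio up to 0.27. The cause was not tested. The replicate numbers were not taken as a pairing, because the labels do not say that they pair animals. Deviations of libraries with the same replicate number had correlations of -0.11, -0.018 and -0.13. Those of libraries with different numbers ran from -0.24 to 0.24. With 3 libraries a group such values cannot show whether the libraries are paired. With the replicate number as a block, 0 miRNAs, 0 members and 0 ratios passed. The planned count tests other than limma-voom were not run, as the deposited values are rounded CPM. Depth limits the 3 minor arms under 10 CPM, with 0 to 45 reads a library.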
